A study of Mus musculus with 9 samples.

Results

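A set of 10 genes of the early B lineage and of lymphoid priming were followed in sorted haematopoietic stem and progenitor cells: Cd79a, Cd79b, Blnk, Ebf1, Pax5, Vpreb1, Igll1, Rag1, Rag2 and Dntt. They were chosen by name, and all 10 of the 10 were found among the 24060 named rows of the count table. All 10 of them passed the filter on low counts, and 13355 genes were tested in all.

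B cell development starts when lymphoid-primed progenitors open the recombination machinery. RAG1 and RAG2 cut antigen receptor genes, and terminal transferase, the product of Dntt, adds bases at the cut ends. EBF1 and then PAX5 set the B cell program, whose targets include the surrogate light chain (VPREB1 and IGLL1), the signalling chains CD79A and CD79B of the B cell receptor and the adaptor BLNK. Some of these genes, Dntt and the Rag genes among them, are known to be transcribed at low levels in multipotent progenitors before commitment, while CD79A and PAX5 are textbook markers of committed B cells.

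The study asked how forced MSI2 expression changes the stem cell compartment in a mouse model of myelodysplastic syndrome. Bone marrow of control C57BL/6 mice, of NHD13 mice or of NHD13/MSI2 mice was transplanted, with CD45.1 helper cells, into lethally irradiated CD45.1 congenic recipients. NHD13 is a NUP98-HOXD13 fusion transgene driven by the Vav promoter, which is active throughout blood cells, and NHD13/MSI2 adds the doxycycline-inducible KH2-Col1A1-tet-on-MSI2/ROSA26-rtTA alleles. CD45.2 LSKs, the lineage-low Sca1+ Kit+ cells that come from the donor marrow, were sorted after 3 months of doxycycline. All 9 libraries are labelled C57BL/6, LSK and 4 months of age, with 3 control, 2 NHD13 and 4 NHD13/MSI2 libraries. The study's account counts this time from transplantation, not from birth. Nothing in the labels says that the libraries of a group came from separate mice, so the p-values measure the spread between these libraries, part of which may be technical. The lineage antibodies of the study's stem cell stain include B220, a B cell surface protein. In such bulk libraries, fewer cells of a type and less RNA per cell cannot be told apart.

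Each library held 19242153 to 23013493 reads on named genes. The names of 2 control libraries, replicates 2 and 3, carry MPP and HSC beside the LSK label, and that of replicate 1 does not. The controls also mixed the sexes. Xist, transcribed from the inactive X chromosome of females, had 21712, 49 and 21664 counts in controls 1, 2 and 3, and Uty, on the Y chromosome, had 32, 2348 and 1, so these libraries did not all come from 1 mouse. The other 6 libraries had 3 to 42 Xist and 1971 to 2917 Uty counts, the male pattern of control 2. Sex therefore differs between the groups in the comparisons with control. Against control 2 alone, the log2 fold changes of NHD13/MSI2 were 9.34 for Cd79a and 1.78 for Cd79b, both called over control in the main fit. Against control 1 alone, a female control, they were 5.90 and 1.70. Such fits leave 1 control library, so they cannot tell sex from the loss of libraries. The part of sex was not tested. Hoxd13, the homeobox part of the fusion, had 0 counts in the 3 controls and 13 to 25 in the other 6 libraries. Msi2 itself did not rise with the label NHD13/MSI2, at 122 ± 79.5 CPM (SD, n = 4; CPM, counts scaled to one common library total) against 125 ± 19.9 in NHD13 (n = 2) and 268 ± 46.4 in control (n = 3). Replicate 4 of NHD13/MSI2 held the highest Msi2 level of its group, apart from the others. Whether reads of the inducible MSI2 allele were counted on the mouse gene Msi2 is not given in the sources used here. Each direction given for this group is therefore that of the libraries so labelled. NHD13/MSI2 replicate 4 stood apart from its group (correlation of log2 CPM 0.943 to 0.949 with the other 3 libraries, which reached 0.970 to 0.973 among themselves), and so did the 2 NHD13 libraries from each other (0.937).

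The 10 genes did not move as a group. Against NHD13, 1 of them, Cd79b, was called higher and 0 lower in NHD13/MSI2 by edgeR's quasi-likelihood test at a Benjamini-Hochberg adjusted p under 0.01, where 0.584% of all tested genes were called higher, 2.58% lower and 3.17% either way. Against control, 3 were called higher (Cd79a, Cd79b and Pax5) and 0 lower, beside 4.49% and 6.55% of all tested genes and 11.0% either way. Library totals without TMM factors, the edgeR scaling used here, shift the median of all genes by -0.20 over NHD13 and -0.21 over control, and split the calls over control into 401 higher and 1085 lower in place of 599 and 875. The TMM factor was 0.785 in NHD13/MSI2 replicate 4 and 0.9689 to 0.9735 in the rest of that group. In the control and NHD13 libraries it was 1.052 to 1.087. Between NHD13 and control none of the 10 was called by edgeR, where 1.03% of all tested genes were called, 0.824% higher and 0.210% lower. At an unadjusted p under 0.05 in edgeR the counts were 7, 6 and 4 of the 10 in these 3 comparisons, beside 21.7%, 32.8% and 13.5% of all tested genes. DESeq2 called 3, 5 and 3 of the 10, beside 9.47%, 18.1% and 4.12% of the genes it tested. The median log2 fold change of the 10 genes was -2.02 for NHD13/MSI2 over NHD13, -1.25 over control and 0.75 for NHD13 over control, with medians over all tested genes of -0.03, -0.01 and 0.02. The comparisons share libraries, so their values are not independent of each other.

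**Figure D1:**
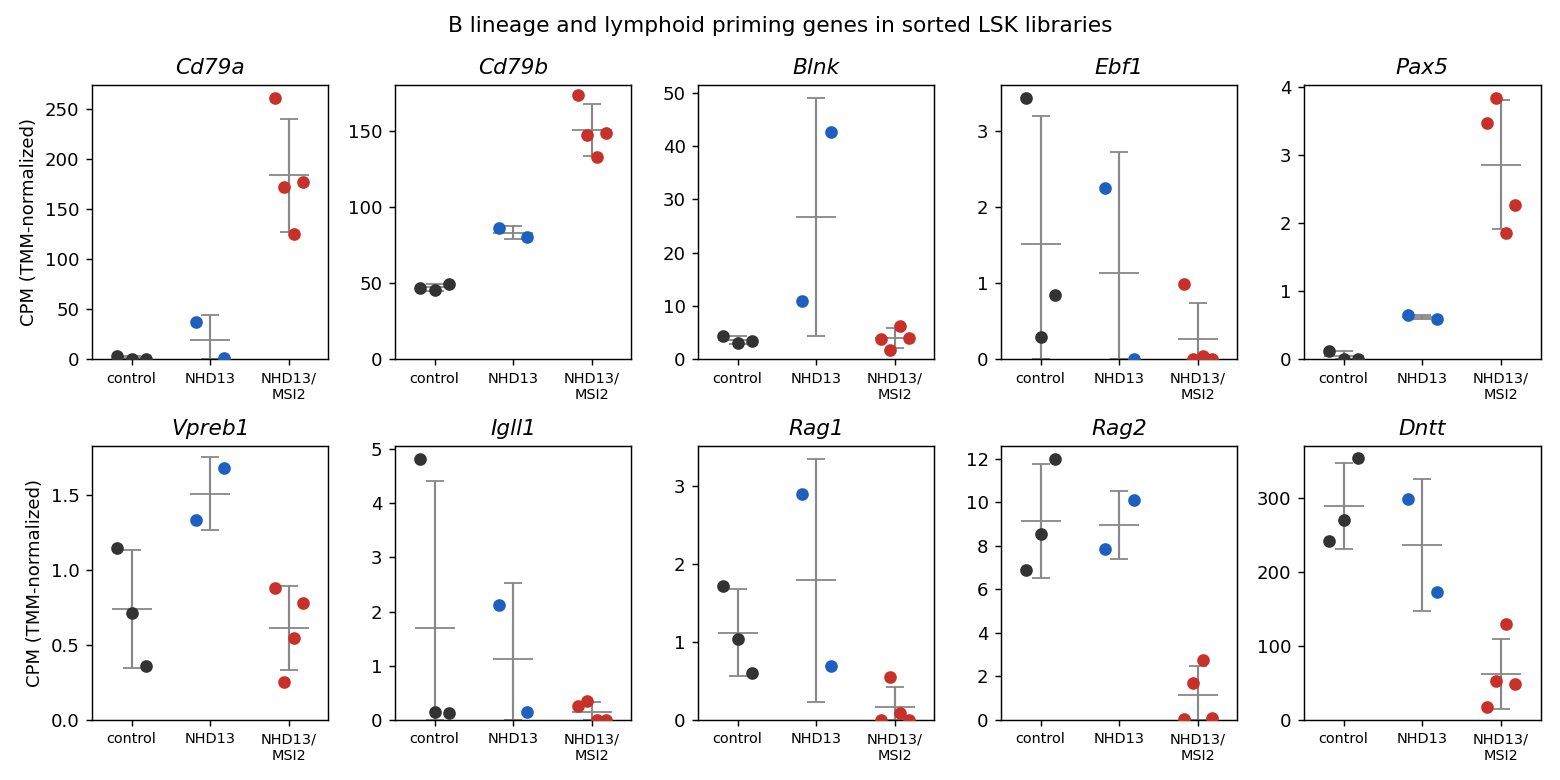
TMM-normalized CPM of the 10 genes in every library (points) by group, with the group mean and SD as grey lines drawn no lower than 0. Each panel has its own linear axis. The 4 NHD13/MSI2 points lie above all others for Cd79a, Cd79b and Pax5, and below all others for Rag1, Rag2 and Dntt.

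Cd79a encodes the alpha signalling chain of the B cell receptor. The gene lies on the plus strand of GRCm38 at chr7:24897381-24902197, in 5 exon blocks. It stood at 3.11, 0.285 and 0.36 CPM in the 3 control libraries, at 37.0 and 0.593 in the 2 NHD13 libraries, and at 261, 172, 125 and 177 in the 4 NHD13/MSI2 libraries. Every NHD13/MSI2 library was above every other library, and NHD13 replicate 1 lay between the groups while NHD13 replicate 2 lay within the control range. The mean of 184 ± 56.7 CPM (SD, n = 4) was 147-fold that of control, with a log2 fold change of 7.17 (SE 1.36, adjusted p = 0.00536, edgeR quasi-likelihood test with Benjamini-Hochberg adjustment). Over NHD13 the log2 fold change was 3.29 (SE 1.29, adjusted p = 0.170), and that value rests on 1 library: it was 8.29 without NHD13 replicate 1 (adjusted p = 0.0270) and 2.35 without NHD13 replicate 2 (adjusted p = 0.254). NHD13 over control had 3.89 (SE 1.28, adjusted p = 0.184), which turned to -1.09 without NHD13 replicate 1. The call against control was lost when any 1 control library was left out (adjusted p = 0.0106, 0.0274 and 0.0286, log2 fold changes of 6.73 to 9.12) or NHD13/MSI2 replicate 1, 2 or 3 (adjusted p = 0.0119, 0.0116 and 0.0109), always with Cd79a higher. Against control 2 alone, the male control, the log2 fold change was 9.34 (adjusted p = 0.105). The promoter sequence of this gene is shown because of the 147-fold ratio of its means between NHD13/MSI2 and control. It is RefSeq sequence of GRCm38.p6, read 5′ to 3′ on the plus strand at chr7:24897247-24897380, bases -250 to -117 from the RefSeq start, which are those ahead of the first annotated exon, and the capitals mark an E-box of the letters CAGGTG.
Cd79a: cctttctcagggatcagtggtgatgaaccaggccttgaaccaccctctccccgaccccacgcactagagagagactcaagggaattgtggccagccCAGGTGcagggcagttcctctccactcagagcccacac
CAGGTG is the core bound by the E2A proteins, the products of Tcf3, and by other factors of that family. It was found on either strand in the 250 bases before the start of 17.1% of 27025 mouse promoters. In Cd79a it lies at -154 to -149 from the start.

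Cd79b encodes the beta chain that pairs with CD79A. It lies on the minus strand of GRCm38 at chr11:106311341-106314762. Its levels were 46.9, 45.2 and 49.7 CPM in control, 86.1 and 80.2 in NHD13, and 174, 147, 133 and 149 in NHD13/MSI2. The 3 groups did not overlap, and the spread within each was small, unlike that of Cd79a. Cd79b rose by a log2 fold change of 0.86 over NHD13 (SE 0.15, adjusted p = 0.00904) and of 1.67 over control (SE 0.13, adjusted p = 7.59e-05) in edgeR's quasi-likelihood test. NHD13 over control gave 0.82 (SE 0.15, adjusted p = 0.0226), which did not pass 0.01. It did so in DESeq2 (adjusted p = 0.000103) and in edgeR without NHD13/MSI2 replicate 4 (adjusted p = 0.00771). Against control 2 alone, NHD13/MSI2 gave 1.78 (adjusted p = 0.0164). The call over NHD13 is close to the threshold: it held in 7 of 21 alternative settings and was lost in 14, where the adjusted p reached 0.0534 and the log2 fold change stayed between 0.66 and 0.94.

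Per kilobase of exon, the 2 chains were far from equal amounts in control and near equal in NHD13/MSI2. The ratio of Cd79a to Cd79b was 0.0651, 0.00619 and 0.00712 in control and 0.422 and 0.00726 in NHD13. It was 1.48, 1.15, 0.924 and 1.17 in the libraries labelled NHD13/MSI2. All 4 of these lay above the other 5 libraries, of which NHD13 replicate 1 was the highest. The ratio is given as a description without a test.

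**Figure D2:**
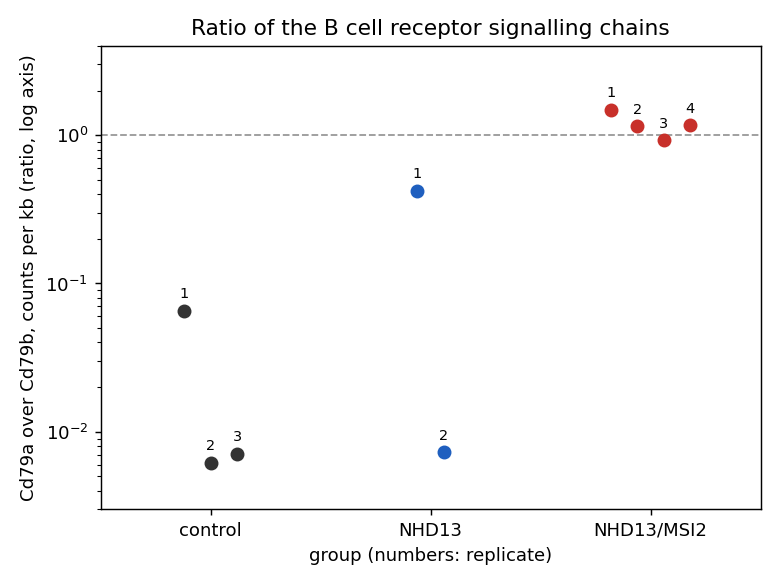
Ratio of Cd79a to Cd79b counts per kilobase of exon in each library, on a log axis, with the replicate number beside each point and a dashed line at equal amounts. The 4 NHD13/MSI2 libraries lie between 0.924 and 1.48, NHD13 replicate 1 lies at 0.422, and the other 4 libraries lie at or below 0.0651.

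Blnk encodes the adaptor that links the kinase SYK to downstream signalling. It lies on the minus strand at chr19:40928927-40994535 (GRCm38). Control libraries held 4.33, 2.99 and 3.36 CPM, NHD13 libraries 10.9 and 42.5, and NHD13/MSI2 libraries 3.78, 1.75, 6.29 and 3.89. Both NHD13 libraries were above all others, and the control and NHD13/MSI2 libraries overlapped. The log2 fold change of NHD13/MSI2 over NHD13 was -2.76 (SE 0.55, adjusted p = 0.0157) and that of NHD13 over control was 2.90 (SE 0.61, adjusted p = 0.0396), neither past 0.01 in edgeR, whereas DESeq2 called both (adjusted p = 0.00011 and 0.000233). Without NHD13 replicate 2, in which Blnk was highest, these values were -1.42 and 1.59. NHD13/MSI2 over control gave 0.14 (SE 0.52, adjusted p = 0.885), and its sign changed with the setting. Blnk thus followed neither signalling chain: its level was highest in the group in which Cd79b was intermediate.

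Ebf1 encodes the factor that starts the B cell program. It lies at chr11:44617317-45008091 on the plus strand (GRCm38). It had 84, 6 and 21 counts in control, 49 and 0 in NHD13, and 19, 0, 1 and 0 in NHD13/MSI2. The groups overlapped, and 3 of the 4 NHD13/MSI2 libraries had at most 1 read. With 0 counts, the limit is 0.148 CPM in NHD13 replicate 2 and 0.15 and 0.195 CPM in NHD13/MSI2 replicates 2 and 4 (3 counts, counting error only). The log2 fold change was -2.10 over NHD13 (SE 1.80, adjusted p = 0.563) and -2.53 over control (SE 1.66, adjusted p = 0.333), and neither was called. The spread within the control and NHD13 groups was wide. Leaving out 1 library moved the value over control between -6.05 and -1.11, and against control 2 alone it was -0.11. The value over NHD13 turned to 5.48 without NHD13 replicate 1, which leaves NHD13 at 0 counts.

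Pax5 encodes the factor that holds cells in the B lineage. It lies at chr4:44524757-44710487 on the minus strand (GRCm38). Its counts were 3, 0 and 0 in control, 14 and 12 in NHD13, and 67, 77, 41 and 35 in NHD13/MSI2. The 3 groups did not overlap, and no control library exceeded 3 counts. Against a floor of 3 counts per control library, the NHD13/MSI2 mean of 2.86 ± 0.946 CPM was at least 22.3-fold higher and Pax5 was called (adjusted p = 0.00283, edgeR), while the NHD13 mean of 0.618 ± 0.0362 CPM was at least 4.82-fold higher and was not called (adjusted p = 0.109, and 0.00958 in DESeq2, which called it). Over NHD13 the NHD13/MSI2 mean was 4.62-fold higher (log2 fold change 2.20, SE 0.89, adjusted p = 0.181 in edgeR and 0.00968 in DESeq2). The call against control was lost without control replicate 2 (adjusted p = 0.0126) or replicate 3 (0.013), and against control 2 alone (0.0321). In GENCODE, 761 exon bases of Pax5 are shared with 5730488B01Rik and the antisense gene Gm12462 on the other strand. Whether the counting used strand is not given in the sources used here, so reads of these genes cannot be told apart. Pax5 and Ebf1, which acts before it in normal B cell development, were not ordered alike over the libraries. NHD13/MSI2 replicate 4 had 35 Pax5, 2724 Cd79a and 0 Ebf1 counts, and control replicate 1 had 3 Pax5, 76 Cd79a and 84 Ebf1 counts. In other libraries both were read, with 67 Pax5 and 19 Ebf1 counts in NHD13/MSI2 replicate 1 and 14 and 49 in NHD13 replicate 1.

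Vpreb1 and Igll1 encode the surrogate light chain, which pairs with the immunoglobulin heavy chain in pre-B cells. They are neighbours on the minus strand of chromosome 16, Vpreb1 at chr16:16868403-16870843 and Igll1 at chr16:16860671-16863985 (GRCm38). Vpreb1 had 28, 15 and 9 counts in control, 29 and 34 in NHD13, and 17, 5, 12 and 12 in NHD13/MSI2. The NHD13 libraries were the highest by a small margin, and the control and NHD13/MSI2 libraries overlapped. Its log2 fold change was -1.29 for NHD13/MSI2 over NHD13 (SE 0.69, adjusted p = 0.323), and it was not called in any comparison. Vpreb1 has a near-identical copy, Vpreb2, and shares 108 exon bases with Top3b on the other strand, so its counts are uncertain. Vpreb2 itself had 5, 1 and 2 counts in control and 0 in the other 6 libraries.

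Igll1 had 118, 3 and 3 counts in control, 46 and 3 in NHD13, and 5, 7, 0 and 0 in NHD13/MSI2. Control replicate 1 and NHD13 replicate 1 were far above all other libraries, which had at most 7 reads, and the groups overlapped. The log2 fold change was -2.83 over NHD13 (SE 1.71, adjusted p = 0.390) and -3.41 over control (SE 1.61, adjusted p = 0.176). The first was 0.0763 without NHD13 replicate 1, and the second was 0.14 against control 2 alone. The Igll1 promoter is shown beside that of Cd79a because both are textbook targets of EBF1 and E2A while their counts went separate ways, with Cd79a at 2724 counts and Igll1 at 0 in NHD13/MSI2 replicate 4. The sequence is RefSeq, GRCm38.p6, minus strand, chr16:16863986-16864235, read 5′ to 3′. The capitals mark ACCACA, which is the RUNX letters TGTGGT on the other strand, and CACCTG, which is the E-box CAGGTG on the other strand.
Igll1: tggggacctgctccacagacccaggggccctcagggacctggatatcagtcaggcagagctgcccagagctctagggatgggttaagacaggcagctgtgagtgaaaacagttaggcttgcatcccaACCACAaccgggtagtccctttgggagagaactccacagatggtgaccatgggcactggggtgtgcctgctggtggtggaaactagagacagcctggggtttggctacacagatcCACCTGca
The RUNX letters were found in 14.2% of the 27025 promoters. Here they lie at -123 to -118 and the E-box at -8 to -3. The palindromic EBF1 motif, present in 0.788% of promoters, were found in neither promoter, nor in those of the other 7 of the 10 genes that have a promoter entry in RefSeq. Cd79b has no entry. A match is a description and not a binding site, and the absence of a match says only that these letters are not in this window.

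Rag1 and Rag2 encode the recombinase. The 2 genes are neighbours in opposite orientation, at chr2:101638282-101649501 (minus strand) and chr2:101624718-101632529 (plus strand) of GRCm38. Rag1 had 42, 22 and 15 counts in control, 63 and 14 in NHD13, and 0, 11, 2 and 0 in NHD13/MSI2. All 4 NHD13/MSI2 libraries lay below all others, at levels near the floor of 3 counts in 3 of them. The log2 fold change was -3.41 over NHD13 (SE 1.25, adjusted p = 0.139) and -2.73 over control (SE 1.16, adjusted p = 0.136), and neither was called. Leaving out 1 library moved the first between -5.47 and -2.02 and the second between -4.81 and -2.29.

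Rag2 had 168, 180 and 300 counts in control, 171 and 204 in NHD13, and 1, 34, 61 and 1 in NHD13/MSI2. The NHD13/MSI2 libraries were again the lowest 4, and replicates 1 and 4 held a single read each. In CPM this was 9.14 ± 2.61 in control (SD, n = 3), 8.97 ± 1.56 in NHD13 (n = 2) and 1.14 ± 1.33 in NHD13/MSI2 (n = 4). The log2 fold change was -2.94 over NHD13 (SE 1.01, adjusted p = 0.118) and -2.96 over control (SE 0.95, adjusted p = 0.0543 in edgeR and 0.00934 in DESeq2). Rag1 and Rag2 share 80 and 208 exon bases with B230118H07Rik, which itself fell over control (log2 fold change -1.07, adjusted p = 0.00188). How the counting treated reads in these bases is not given in the sources used here.

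Dntt encodes terminal deoxynucleotidyl transferase, which per kilobase of exon was the most abundant of the 10 in control. It lies on the plus strand at chr19:41029275-41059525 (GRCm38), next to Blnk. Its levels were 242, 271 and 354 CPM in control, 299.6 and 174 in NHD13, and 16.9, 53.1, 129 and 48.8 in NHD13/MSI2. The 4 NHD13/MSI2 libraries were the lowest 4, with replicate 3 nearest to the others, and control and NHD13 overlapped. The log2 fold change was -2.22 over control (SE 0.54, adjusted p = 0.0176) and -1.93 over NHD13 (SE 0.58, adjusted p = 0.0777), which did not pass 0.01 in edgeR. DESeq2 called the first (adjusted p = 0.000233), and so did edgeR without NHD13/MSI2 replicate 3 (log2 fold change -2.87, adjusted p = 0.00369). Blnk and Dntt, though adjacent, did not move alike: Blnk was 7.50-fold higher in NHD13 than in control by the ratio of means and Dntt 1.22-fold lower.

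The promoters of Rag1 and Dntt are shown because the 3 recombination genes were low in the same 4 libraries. Both are RefSeq sequence of GRCm38.p6, read 5′ to 3′, Rag1 from the minus strand at chr2:101649533-101649782 and Dntt from the plus strand at chr19:41029025-41029274. In Rag1 the capitals mark, in order, the E-box CAGGTG, the RUNX letters TGTGGT at 2 places, and the Ikaros letters TGGGAA.
Rag1: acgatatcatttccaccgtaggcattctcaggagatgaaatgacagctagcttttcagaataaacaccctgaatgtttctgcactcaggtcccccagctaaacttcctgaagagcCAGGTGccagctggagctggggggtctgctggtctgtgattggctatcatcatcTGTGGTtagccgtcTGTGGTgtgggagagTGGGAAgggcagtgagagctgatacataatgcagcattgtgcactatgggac
Dntt: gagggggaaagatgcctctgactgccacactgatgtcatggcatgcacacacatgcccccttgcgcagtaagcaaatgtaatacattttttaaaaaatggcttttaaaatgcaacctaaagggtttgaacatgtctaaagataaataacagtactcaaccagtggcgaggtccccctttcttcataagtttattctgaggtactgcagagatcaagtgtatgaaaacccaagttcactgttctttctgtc
None of the 5 motifs searched on both strands (the 4 named so far and the ETS letters GAGGAAG, found in 10.4% of promoters) occurs in the Dntt sequence, nor in those of Rag2 and Pax5. The Ikaros letters are in 21.5% of promoters. The Rag1 matches lie at -135 to -130, -81 to -76, -67 to -62 and -52 to -47, and no 2 of them overlap. Beyond the promoters printed, the E-box was also found in Blnk and Vpreb1, the RUNX letters in Ebf1 and the ETS letters in Vpreb1.

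**Figure D3:**
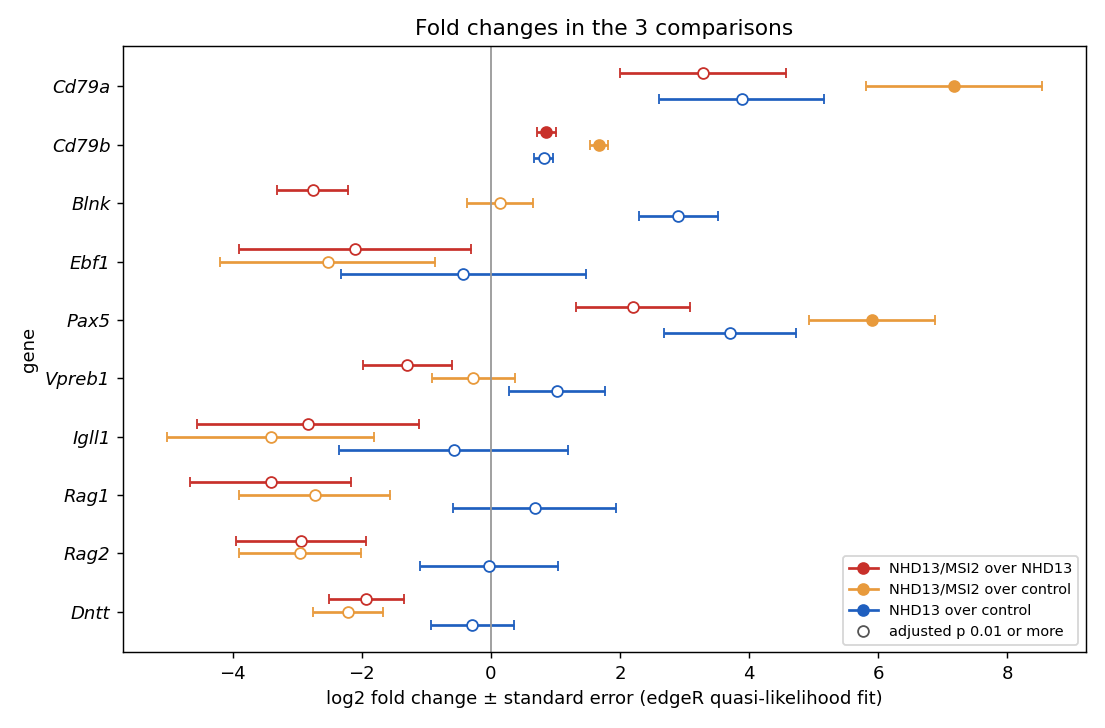
Log2 fold changes of the 10 genes in the 3 comparisons, with the standard error of edgeR's quasi-likelihood fit as bars. Filled points passed an adjusted p of 0.01 and open points did not. The filled points are Cd79b over NHD13 (0.86) and Cd79a (7.17), Cd79b (1.67) and Pax5 over control, where the Pax5 value is set by a control group at the floor and gives no size.

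The 10 genes thus split by their ranges. Of the 10, 3 were higher in all NHD13/MSI2 libraries than in both NHD13 libraries (Cd79a, Cd79b and Pax5) and 5 were lower (Blnk, Vpreb1, Rag1, Rag2 and Dntt). The same non-overlap was found for 13.0% of all tested genes in the higher and 16.9% in the lower direction. Against control the counts were 3 higher and 3 lower (Rag1, Rag2 and Dntt), beside 15.3% and 20.4% of all tested genes. NHD13 was above control without overlap for 4 of the 10 (Cd79b, Blnk, Pax5 and Vpreb1) and below it for 0, beside 18.9% and 18.5%.

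The order of the levels also differed between groups when compared per kilobase of exon. In control Dntt was the highest at 126 ± 25.5 CPM per kilobase (SD, n = 3), followed by Cd79b at 33.0 ± 1.58 and Rag2 at 2.67 ± 0.764. The other 7 genes were all below 1 CPM per kilobase, and Cd79a (0.858 ± 1.10), Igll1 (0.784 ± 1.25) and Vpreb1 (0.616 ± 0.328) did not differ beyond their spread. In NHD13 Dntt was at 103 ± 38.9 and Cd79b at 58.1 ± 2.95 (n = 2). In NHD13/MSI2 Cd79a stood first at 126 ± 38.9, within the spread of Cd79b at 105 ± 11.8 (n = 4), and Dntt followed at 27.1 ± 20.8. Pax5 was low in all groups, at 0.323 ± 0.107 CPM per kilobase in NHD13/MSI2.

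Genes with the profile most like each of the more abundant members were read from the correlation of log2 CPM over the 9 libraries, which share their group structure, so the values are a description. For Cd79a these were Chst3 (r = 0.986), Kcnj11 (0.985) and Sp140 (0.979). For Cd79b they were Bpifc (0.993), Prkcd (0.992) and Tpd52 (0.989). Blnk was closest to Csmd3 (0.964), Rag2 to Slc35a5 (0.980) and Dntt to Hip1r (0.982). The genes named beside a member by this measure did not include another of the 10.

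The genes on either side on the chromosome were read for the same reason. Scn4a, a sodium channel gene of muscle next to Cd79b, had 0, 1 and 10 counts in control, 4 and 3 in NHD13, and 118, 89, 73 and 53 in NHD13/MSI2. Like Cd79b, it was higher in every NHD13/MSI2 library than in any other, with a log2 fold change of 4.78 over control (SE 0.96, adjusted p = 0.00699, edgeR) and 4.65 over NHD13 (SE 1.15, adjusted p = 0.0365). Zcchc7, next to Pax5, rose by 1.54 over control on the log2 scale in NHD13/MSI2 (SE 0.20, adjusted p = 0.000779) and by 1.59 in NHD13 (SE 0.22, adjusted p = 0.00572). Rps19 and Arhgef1, the tested neighbours of Cd79a, were not called in any comparison.

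Genes that act around the 10 were read from companion lists. Of 16 early lymphoid progenitor genes, 1 was called higher and 0 lower in NHD13/MSI2 over NHD13, and 4 higher and 1 lower over control. Flt3, the receptor that marks lymphoid-primed progenitors, fell by 2.01 on the log2 scale over control (SE 0.37, adjusted p = 0.00497), from 586, 581 and 674 CPM to 128, 104, 206 and 171. Its levels in NHD13 were 133 and 445. The 4 called higher were Tyrobp (3.80), Lsp1 (2.03), Satb1 (1.86) and Rhoh (0.75), and Lsp1, a leukocyte actin-binding protein, was also the 1 called over NHD13 (1.55, SE 0.16, adjusted p = 0.00117). Il7r, the interleukin 7 receptor that B cell precursors need in the mouse, had 120, 72 and 106 counts in control, 1501 and 51 in NHD13, and 41, 184, 255 and 55 in NHD13/MSI2. The groups overlapped, and NHD13 replicate 1 stood far above all other libraries.

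Of 16 tested B lineage transcription factors, 0 were called over NHD13 and 2 were called higher over control: Irf8 (log2 fold change 3.63, SE 0.38, adjusted p = 0.000268) and Pou2f2 (1.91, SE 0.27, adjusted p = 0.00127). IRF8 also serves dendritic cells and monocytes. Tcf3, Foxo1, Spi1 and Ikzf1, which act upstream in the B lineage, were not called in any of the 3 comparisons. Tcf3 stood at 21.1 ± 5.61, 22.3 ± 4.46 and 25.9 ± 4.12 CPM in control, NHD13 and NHD13/MSI2. By the ratio of means over control, Spi1 was 2.86-fold higher in NHD13/MSI2, Foxo1 1.72-fold lower and Ikzf1 1.09-fold lower. The libraries of these groups overlapped for each of these genes. Pou2af1, a B cell coactivator, had 34, 2 and 0 counts in control, 99 and 28 in NHD13 and 0 in all 4 NHD13/MSI2 libraries.

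Of 13 tested B cell surface and surrogate light chain genes, 2 were called higher and 1 lower over control, and 1 and 1 over NHD13. Vpreb3, a B cell chaperone-like relative of Vpreb1, had 25, 2 and 5 counts in control, 121 and 25 in NHD13, and 403, 426, 287 and 184 in NHD13/MSI2. These were the highest 4, with a log2 fold change of 5.22 over control (SE 0.84, adjusted p = 0.0024) and 2.30 over NHD13 (SE 0.82, adjusted p = 0.133). Fcer2a, the low-affinity IgE receptor CD23 of mature B cells, had 5, 8 and 4 counts in control, 44 and 2 in NHD13, and 675, 582, 692 and 313 in NHD13/MSI2. It rose over both control (6.85, SE 0.82, adjusted p = 0.00057) and NHD13 (4.75, SE 0.85, adjusted p = 0.00972). Cd38 fell in both, by 3.16 and 4.19. Cd79a, Vpreb3 and Fcer2a, like Lat2, Cd5, Pld4, Cd209d, Scn4a, Prkcd and Bpifc, belong to a signature that the study itself drew from these libraries, so their direction here is not independent evidence.

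**Figure D4:**
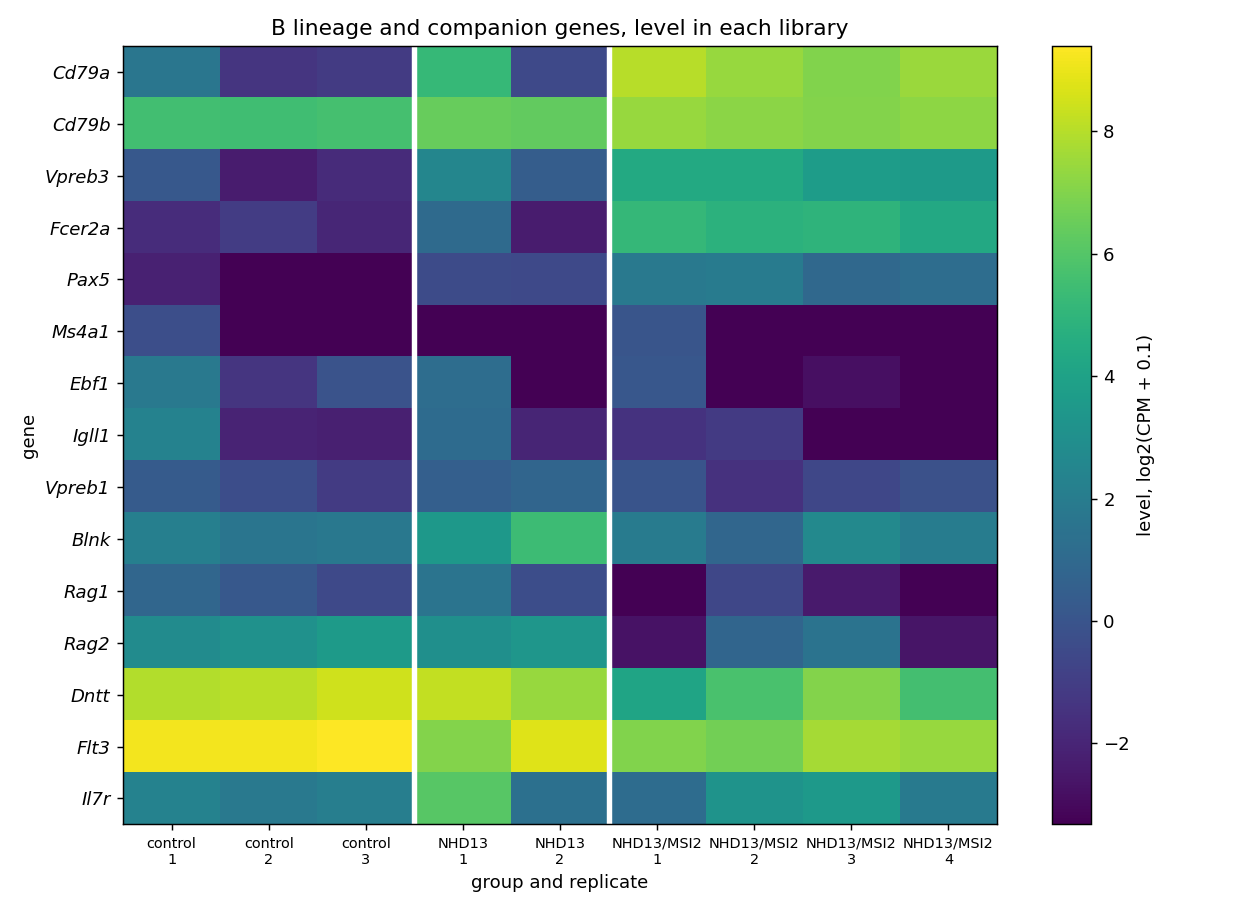
Level of the 10 genes and of 5 companion genes in each library as log2(CPM + 0.1), from dark (low) to light (high), with white lines between the groups. Cd79a, Cd79b, Vpreb3, Fcer2a and Pax5 are lightest in the 4 NHD13/MSI2 columns, and Ebf1 and Igll1 are lightest in control replicate 1 and NHD13 replicate 1.

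Of 16 pre-B cell receptor signalling genes, 0 were called over NHD13, and over control 3 were called higher and 1 lower. Lat2, an adaptor of B and mast cells, rose by 2.45 (SE 0.27, adjusted p = 0.000337), Pik3ap1 by 1.13 and the kinase gene Lyn by 0.92, and Dapp1 fell by 1.29. Syk and Btk, the kinases around BLNK, were not called, with Syk at 166 ± 29.9, 142 ± 29.1 and 167 ± 20.1 CPM in control, NHD13 and NHD13/MSI2. Btk averaged 215, 219 and 298 CPM, and every NHD13/MSI2 library was above all others. Its log2 fold change was 0.47 over control (adjusted p = 0.0297, edgeR) and 0.44 over NHD13 (adjusted p = 0.110). Of 12 V(D)J recombination and end joining genes besides the Rag genes and Dntt, 1 was called lower over control and 0 over NHD13. This was Xrcc5, the KU80 subunit of the end-binding complex, which fell from 63.8, 68.7 and 74.5 CPM in control to 7.29, 3.29, 8.37 and 3.25 in NHD13/MSI2 (log2 fold change -3.63, SE 0.43, adjusted p = 0.000546). In the NHD13 libraries it was at 45.5 and 16.8. Prkdc, its catalytic partner, was not called, at 70.1 ± 7.09, 82.2 ± 14.9 and 75.3 ± 30.5 CPM. In NHD13 over control, 0 genes of these 5 lists passed 0.01 in edgeR, and DESeq2 called up to 2 in a list.

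**Figure D5:**
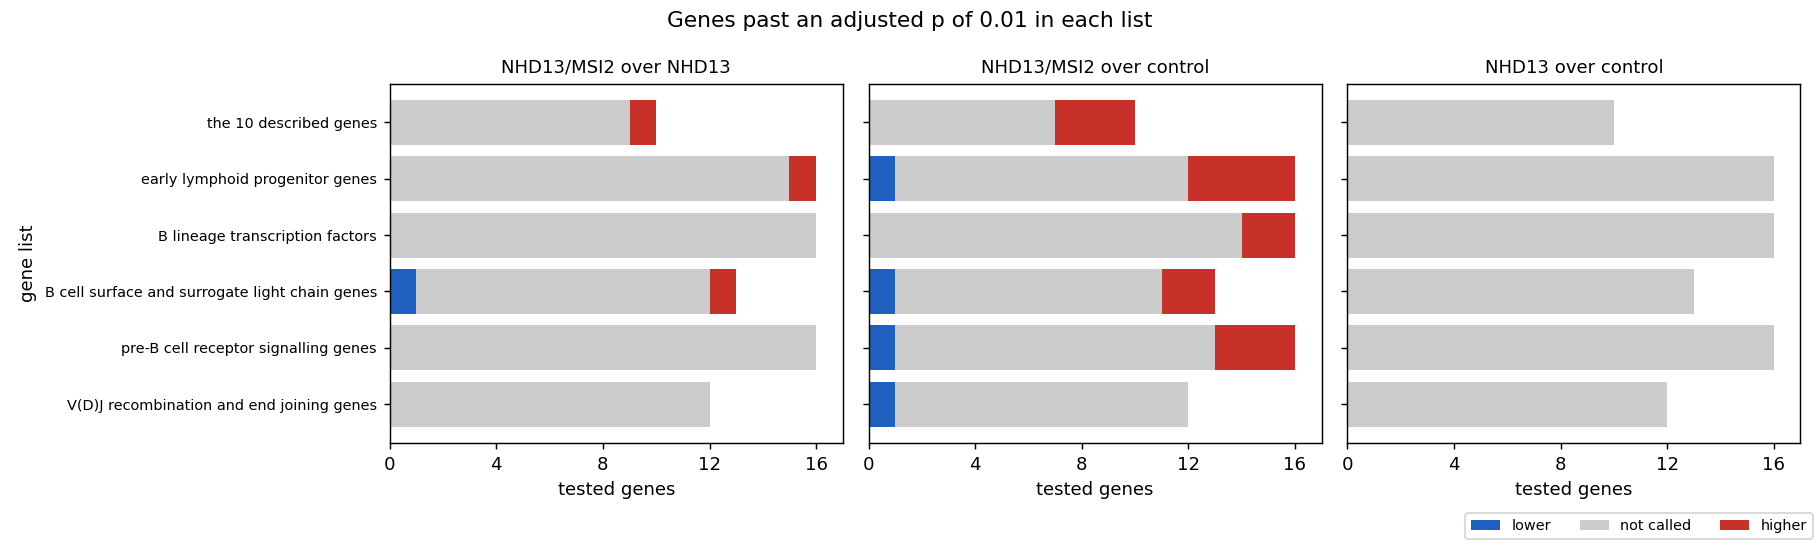
Number of tested genes in each list called lower (blue), not called (grey) and called higher (red) at an adjusted p under 0.01 in the 3 comparisons. Called genes are a minority of each of the 6 lists drawn, which leave out the markers of other cell types and the LSK-defining genes, and the right panel has none.

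Markers of other cell types were read in the same way. The summed level of 12 plasmacytoid dendritic cell markers was 443 to 535 CPM in control, 783 to 844 in NHD13 and 1202 to 1501 in NHD13/MSI2. Of the 11 tested, 3 were called higher (Cd209d, Pld4 and Irf8) and 1 lower (Lair1) in NHD13/MSI2 over control. Over NHD13 it was 1 higher (Runx2), and in NHD13 over control 1 higher (Pld4) and 1 lower (Runx2). Siglech, a defining surface gene of these cells, had 0 to 25 counts per library. The 12 T cell markers summed to 43.3 to 53.0 CPM in control, 209 to 422 in NHD13 and 87.4 to 147 in NHD13/MSI2, with Cd5 called higher in NHD13/MSI2 over both groups, Lck lower over NHD13, and both higher in NHD13 over control. Of the defining CD3 genes, Cd3e was at 0 in all libraries but NHD13 replicate 1 (7 counts) and NHD13/MSI2 replicate 2 (14 counts). The 8 mature B and plasma cell markers in the table summed to 10.3 to 20.6, 1.63 to 26.3 and 26.2 to 45.4 CPM, of which Fcer2a was the 1 called in NHD13/MSI2 over each of the other groups. Fcer2a alone averaged 28.9 CPM in NHD13/MSI2, while Sdc1 averaged 0 in that group and 8.62 CPM in control. Of the 7 tested, 3 had a positive log2 fold change in NHD13/MSI2 over control (median -0.08) and 4 over NHD13 (median 1.61). Among the defining B cell genes of that list, Ms4a1 (CD20) had 18 counts in control replicate 1 and in NHD13/MSI2 replicate 1 and 0 in the other 7 libraries. The 7 erythroid markers in the table summed to 89.01 to 201 CPM in control, 10.3 to 25.1 in NHD13 and 0.947 to 14.8 in NHD13/MSI2, with 2 genes called lower over control, Car1 among them. The 9 neutrophil and monocyte markers in the table overlapped between the groups, at 1132 to 2715, 438 to 1302 and 952 to 1635 CPM, with Csf1r called higher in each of the 3 comparisons. Over control 3 of these 9 had a positive log2 fold change in NHD13/MSI2 (median -1.69) and 3 in NHD13 (median -1.74). Over NHD13 it was 7 of the 9 in NHD13/MSI2 (median 0.22). Of the 8 LSK-defining genes none was at 0, though 1 was at or under 3 counts in each of NHD13/MSI2 replicates 1, 2 and 4. Slamf1 averaged 0.547 CPM in NHD13/MSI2, 32.6 in NHD13 and 19.3 in control. The sum of the 8 genes was 4651 to 5328, 2743 to 3881 and 2744 to 3508 CPM. In NHD13/MSI2 over control 4 of these 8 were called lower (Cd34, Procr and Slamf1 among them), over NHD13 2 (Slamf1 among them), and in NHD13 over control 1 (Cd34). In NHD13/MSI2, 3 of the 8 had a positive log2 fold change over control and 3 over NHD13. Ly6a, the gene of Sca1, was higher in every NHD13/MSI2 library than in any other, though not called. Its log2 fold change was 1.60 over control (adjusted p = 0.0167) and 2.15 over NHD13 (adjusted p = 0.0221) in edgeR's quasi-likelihood test. Kit was not called in either (-0.76 and -0.42). Cd34 was 1.66-fold higher than in NHD13 by the ratio of means, and not called. The part of these cell types in the values of the 10 genes was not tested.

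The 2 NHD13 libraries differed from each other in lymphoid and T lineage genes. Replicate 1 had 1501 Il7r, 2798 Ccr9, 1326 Ly6d, 3014 Tcf7 and 920 Bcl11b counts, where replicate 2 had 51, 21, 8, 27 and 1. The same library held 805 of the Cd79a, 49 of the Ebf1 and 46 of the Igll1 counts, against 12, 0 and 3 in replicate 2, while Blnk was the higher in replicate 2. For Cd79a, Ebf1, Igll1, Rag1 and Blnk, a comparison with NHD13 thus sets the other groups against 2 unlike libraries, whereas Cd79b, Pax5, Vpreb1 and Rag2 were close in both.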

How the data were processed

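RNA of sorted LSKs from 9 libraries was sequenced by the authors, who deposited raw read counts per gene in 1 table. Their processing notes name STAR, HTSeq, DESeq and the build mm9, and versions, strandedness and treatment of shared reads are not given in the sources used here. Of its gene names, 11 had become dates of the form n-Mar, and the 11942 names after them sat 2 rows too high. They were moved down by 2, which was checked on Xist, Uty and ribosomal protein genes, and concerns Pax5, Vpreb1, Rag1 and Rag2. The 13 rows without a gene name (0.0253 to 0.0323% of reads) were left out.

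Counts were tested on all 9 libraries with edgeR 4.0.16 in R 4.3.3 (filterByExpr, TMM, quasi-likelihood test, 1 mean per group), with Benjamini-Hochberg adjustment over 13355 genes and a threshold of 0.01, after a check on simulated data. DESeq2 1.42.0, other scalings, filters and thresholds, 2-group fits, a replicate block and each library left out were alternatives. Leaving out control replicates 2 and 3 together (MPP and HSC in the name), and 1 and 3 together (female by Xist and Uty), was chosen after seeing the data, and the lone control is then assumed to vary like the other groups. A count of 0 allows up to 3 counts, 0.12 to 0.195 CPM.

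The 10 genes and the companion and marker lists were chosen with earlier results of these data known. Beside the 10, genes were named by a list fixed for this work, as the up to 3 most changed called genes of each list and direction, or as the 3 most similar profiles (members with a mean of at least 50 counts). Chromosome neighbours and other genes named with counts alone were chosen after their values were seen. Tables were handled in Python 3.11.15 with pandas 2.3.3. Gene positions are those of GENCODE on GRCm38, not of the authors' build. Values of some companion and marker genes are not reported here.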

Additional observations from a re-analysis of the deposited data

Results flagged for a closer look

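In the 4 NHD13/MSI2 libraries, 5 of 50 genes examined had 1 library apart from the other 3, by the gap to its nearest neighbour as a share of the group's range (above the critical value of Dixon's test for 4 samples). Chance alone flags about 1 in 20 groups of normally distributed values. That rate need not hold for genes with counts near 0, such as Ebf1 and Rag1. Replicate 1 was the highest for Ebf1 (0.954), with 19 counts against 0, 1 and 0. Replicate 2 was the highest for Rag1 (0.835), with 11 counts against 0, 2 and 0. Replicate 4 was the highest for Msi2 (0.933) and for Prkdc (0.876). Replicate 3 was the highest for Slamf1 (0.942).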

How the results depend on the processing

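Over 30 log2 fold changes (10 genes in 3 comparisons) and 601 alternative values, 534 kept direction and side of the threshold, 28 lost the call, 13 gained one and 26 turned. The cause was not tested. Of the 10 genes, 1 was called over NHD13: DESeq2 called 3, an adjusted p under 0.05 gave 2, no TMM factors, no filter, only the 2 groups compared and leaving out control replicates 2 and 3, or 1 and 3, together each gave 0, and leaving out 1 library gave 0 to 1, with 1 kept without NHD13/MSI2 replicate 4 and the other 8 at 0. Against control, where 3 were called, DESeq2 called 5, leaving out 1 library gave 1 to 3 (1 without control replicate 2 or 3), and without both of these, or without 1 and 3, it was 0. For NHD13 over control, with 0 called, DESeq2 gave 3, an adjusted p under 0.05 gave 2, and leaving out 1 library gave 0 to 1.

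Turned over NHD13: Ebf1 5.48 and Igll1 0.0763 without NHD13 replicate 1, and Vpreb1 1.25 with names as deposited. Turned over control: Blnk -0.0725 without TMM factors, -0.19 without NHD13/MSI2 replicate 3 and -0.13 without control replicates 2 and 3, Vpreb1 0.36 with names as deposited and 0.19 without control replicate 1, and Rag2 0.0732 with names as deposited. Turned for NHD13 over control: Cd79a -1.09, Rag1 -0.69 and Rag2 0.15 without NHD13 replicate 1, Ebf1 0.54, Igll1 0.29 and Dntt 0.0410 without NHD13 replicate 2, Ebf1 0.99 without control replicate 1, Rag2 0.22 without control replicate 3 and 0.37 without control replicates 2 and 3, Vpreb1 -0.90 and Rag2 0.12 with names as deposited, and Ebf1 1.96, Igll1 2.94 and Rag2 0.0766 without control replicates 1 and 3. Without these 2 controls Igll1 also turned over control (0.14). None of these turned values belonged to a comparison in which its gene was called. With names as deposited, the values under the names Pax5, Vpreb1, Rag1 and Rag2 are counts of other genes. The turned values of Vpreb1 and Rag2 in that setting therefore say nothing about these 2 genes, though they are counted among the alternatives.

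For the log2 fold changes that turned without 1 library, the range over such fits was, over NHD13, -5.60 to 5.48 for Ebf1 and -3.69 to 0.0763 for Igll1. Over control it was -0.19 to 0.40 for Blnk and -0.60 to 0.19 for Vpreb1. For NHD13 over control it was -1.09 to 5.83 for Cd79a, -8.00 to 0.99 for Ebf1, -3.48 to 0.29 for Igll1, -0.69 to 1.35 for Rag1, -0.23 to 0.22 for Rag2 and -0.73 to 0.0410 for Dntt.

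The replicate numbers did not pair the libraries (correlations of deviations from -0.0716 to 0.194 for equal numbers). With the replicate block, 0 of the 10 were called over NHD13 (Cd79b 0.89, adjusted p = 0.0169 in edgeR) and 203 of all genes, and Rag2 (0.41) and Dntt (0.14) turned for NHD13 over control.

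All genes called over NHD13 numbered 423, with 1292 by DESeq2, 1177 at 0.05, 30 with only the 2 groups, 128 to 646 with 1 library left out and 41 without control replicates 2 and 3 (38 without 1 and 3). Against control they numbered 1474, with 2590 by DESeq2, 2745 at 0.05, 647 to 2066 with 1 library left out and 118 without control replicates 2 and 3 (95 without 1 and 3). For NHD13 over control they numbered 138, with 602, 386, 83, 38 to 251 and 8 for the same 5 settings as over NHD13 (7 without controls 1 and 3). Ebf1, Igll1, Rag1, Pax5 and Vpreb1 had few reads, which limits what could be detected for them.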
